A study of Mus musculus with 4 samples.

Results

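CD4 and CD8 T cells of the alloBMT library were compared for open chromatin (ATAC). These were the 2791 cells of that library, 926 in the authors' CD4 set and 1865 in their CD8 set, out of 3587 cells in the series. The cells came from the bone marrow of C57BL/6 mice, 14 days after a transplant from C3H.SW donors of bone marrow with CD4 and CD8 T cells added in equal number. The graft held 5000000 marrow cells and 500000 of each T cell type. The sources used here name neither the age and sex of the mice nor the host T cells that may remain. T cells from 4 mice were sorted and pooled into a single library, in which RNA and accessible DNA were read from the same nuclei. The group treated with cyclophosphamide (PT-Cy, 50 mg/kg on days 3 and 4 after the same transplant, 4 pooled mice) had 284 CD4 and 512 CD8 cells and is used only as a separate measurement of the same peaks. Both alloBMT sets come from a pool of mice in 1 library, so no replicate exists and no test was made. The 95% intervals given with each log2 ratio cover counting error only, and leave out the spread between mice and between cells.

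CD4 T cells recognise peptides on MHC class II and give help to other immune cells, and CD8 T cells recognise MHC class I and kill target cells. The 2 fates are set in the thymus, where the zinc-finger factor ThPOK (gene Zbtb7b) maintains the CD4 fate and Runx3 maintains the CD8 fate and silences Cd4. T cells that keep meeting their antigen, as donor T cells do in a recipient, can become exhausted, a state with open chromatin at inhibitory receptor genes such as Pdcd1 and under the factors Tox and Nr4a. ATAC-seq cuts DNA where nucleosomes are absent, so a count in a peak marks an accessible promoter or enhancer.

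Before any ratio is read, the makeup of the sets has to be known. Every one of the 926 CD4 cells had a Cd4 RNA molecule (UMI) and 0 had one of Cd8a, so the choice of cells appears to have used both genes. Cd8b1, which encodes the beta chain of CD8, had a UMI in 195 of these cells (21.1%). At the 14 peaks nearest to Cd8a and Cd8b1 the CD4 set had 45.5 CPM (counts in each 1000000 of the set's counts), which is 18.8% of the 242 CPM of the CD8 set. In the 731 CD4 cells without a Cd8b1 UMI it was 9.74%. For the CD8 set RNA was not analysed here. The sets held 6974362 (CD4) and 16605930 (CD8) counts in peaks, with medians of 6874 and 7841 counts per cell. The median share of fragments in peaks was 66.6% and 65.4%, and the median enrichment at transcription starts 5.44 and 5.37. Summed levels of genes that mark other blood cells were close in both sets. Over 8 B cell genes the summed levels were 190 CPM in CD4 and 209 in CD8, over 12 myeloid genes 206 and 216, over 10 red cell and platelet genes 130 and 133, and over 6 natural killer and innate-like genes 116 and 132. A large part of the B cell sums was Cd79a alone (89.8 CPM in CD4 and 80.0 in CD8). Of the 6 B cell loci with at least 100 counts, 1 had a log2 ratio CD4 over CD8 above 0, and their median was -0.12. At 0 counts were none of the B cell genes, 1 of the myeloid genes and 2 of each of the other lists. Single members differed: Zbtb16, in the last list, had 267 and 971 counts (log2 ratio CD4 over CD8 -0.61, -0.81 to -0.41), and the B cell factor Pax5 had 370 and 1291 (-0.55, -0.72 to -0.38). Their part in other results was not tested.

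The promoters that set the lineages apart, and promoters of exhaustion genes that did not, are shown here as sequence, because they carry the contrast at the level of single genes. Of 11062 promoter windows (the 250 bases before a RefSeq transcription start) under a peak with at least 100 counts, 9425 (85.2%) lay under a peak open alike in both sets, 10 under a peak at least 2-fold more open in CD4 and 40 under one at least 2-fold more open in CD8. RefSeq windows (GRCm38.p6) were matched by symbol for 202 of 267 listed genes, and for 5 of these the window lay under a peak past 2-fold: Cd8a (chr6:71373177-71373426, plus strand), Klrc1 (chr6:129678974-129679223, minus strand), Klrk1 (chr6:129623865-129624114, minus strand), Cd244a (chr1:171558943-171559192, plus strand) and Tnfsf11 (chr14:78308044-78308293, minus strand). Tigit (chr16:43664185-43664434, minus strand) and Havcr2 (chr11:46454681-46454930, plus strand) are 2 inhibitory receptor genes whose promoter peaks were open alike. A window was counted as under a peak if any of its bases overlapped. The Klrc1 peak (chr6:129678203-129679027) covered only the part of its window nearest the start, so most of the Klrc1 sequence lies outside it. The Klrk1 peak ended at 129624112, just inside its window, and the other windows printed lay wholly in their peaks. Each sequence runs 5′ to 3′ and ends at the base before the start, and capitals mark matches to the motifs searched.
Cd8a: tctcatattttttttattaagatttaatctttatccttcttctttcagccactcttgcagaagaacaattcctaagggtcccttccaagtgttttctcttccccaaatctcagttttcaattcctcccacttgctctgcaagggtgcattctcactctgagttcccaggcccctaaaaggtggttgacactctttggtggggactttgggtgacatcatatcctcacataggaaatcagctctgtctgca
Klrc1: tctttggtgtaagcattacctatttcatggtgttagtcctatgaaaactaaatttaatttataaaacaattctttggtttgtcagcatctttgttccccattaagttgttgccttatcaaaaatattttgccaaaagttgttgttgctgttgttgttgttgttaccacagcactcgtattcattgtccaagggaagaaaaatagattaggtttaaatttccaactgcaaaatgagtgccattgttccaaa
Klrk1: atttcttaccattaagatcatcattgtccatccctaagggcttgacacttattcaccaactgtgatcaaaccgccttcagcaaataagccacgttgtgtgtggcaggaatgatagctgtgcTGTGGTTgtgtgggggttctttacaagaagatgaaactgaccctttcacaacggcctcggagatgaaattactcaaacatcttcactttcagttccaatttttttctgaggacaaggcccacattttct
Cd244a: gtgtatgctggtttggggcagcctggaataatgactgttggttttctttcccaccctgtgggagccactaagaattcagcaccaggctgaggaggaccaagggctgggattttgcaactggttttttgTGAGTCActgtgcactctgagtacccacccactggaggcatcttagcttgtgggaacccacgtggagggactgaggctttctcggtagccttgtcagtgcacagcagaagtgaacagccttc
Tnfsf11: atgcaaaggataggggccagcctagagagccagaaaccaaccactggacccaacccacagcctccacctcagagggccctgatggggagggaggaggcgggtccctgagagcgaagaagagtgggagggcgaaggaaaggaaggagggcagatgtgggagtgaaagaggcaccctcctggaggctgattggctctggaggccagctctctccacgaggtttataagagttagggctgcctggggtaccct
Tigit: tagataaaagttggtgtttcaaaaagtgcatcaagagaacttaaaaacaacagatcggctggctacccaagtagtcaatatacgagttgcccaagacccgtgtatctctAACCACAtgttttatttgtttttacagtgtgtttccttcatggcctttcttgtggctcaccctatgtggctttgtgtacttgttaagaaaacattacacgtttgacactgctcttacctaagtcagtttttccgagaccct
Havcr2: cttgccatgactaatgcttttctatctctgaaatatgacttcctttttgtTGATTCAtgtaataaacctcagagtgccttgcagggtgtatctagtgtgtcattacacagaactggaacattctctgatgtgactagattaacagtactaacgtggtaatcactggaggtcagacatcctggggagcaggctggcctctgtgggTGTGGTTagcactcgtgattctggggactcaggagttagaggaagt
The motifs searched on both strands were RUNX (TGTGGTT), AP-1 (TGANTCA), TCF/LEF (CTTTGAA), T-box (TCACACC), the motif of GATA-binding factors (AGATAAG), NR4A (AAAGGTCA), ETS (CCGGAAGT), NFAT (TGGAAAA) and E-box (CAGGTG). Among the windows printed, a RUNX match stood 129 to 123 bases before the start of Klrk1, 141 to 135 before that of Tigit and 46 to 40 before that of Havcr2. An AP-1 match, which reads the same on both strands, stood 122 to 116 bases before the start of Cd244a and 200 to 194 before that of Havcr2. No match overlapped a match to another motif. The windows of Cd8a, Klrc1 and Tnfsf11 held none of these letters. Of all 27025 promoter windows, 4.46% held the RUNX letters, 6.87% AP-1, 4.64% TCF/LEF, 3.31% T-box, 2.78% that of GATA-binding factors, 1.31% NR4A, 2.93% ETS, 5.99% NFAT and 17.1% E-box. RUNX letters were in 2 of the 40 windows under peaks more open in CD8 (5%), in 0 of the 10 under peaks more open in CD4, and in 3.12% of those under peaks open alike.

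The promoter peaks themselves differed by lineage as follows. The peak over the Cd8a start had 30 counts in CD4 and 362 in CD8 (4.30 and 21.8 CPM), a log2 ratio CD4 over CD8 of -2.34 (-2.93 to -1.80). The peak at Klrc1, the inhibitory receptor chain NKG2A, had 45 and 335 counts (-1.64, -2.13 to -1.19). Klrk1, the activating receptor NKG2D, had 45 and 235 (-1.13, -1.63 to -0.67). Cd244a, the receptor 2B4, had 63 and 335 (-1.16, -1.57 to -0.77). All 4 of these were more open in CD8 cells. Tnfsf11, the cytokine RANKL, was the listed gene with the opposite pattern, at 163 and 172 counts (1.17, 0.86 to 1.49). The promoter peak of Tigit had 502 and 1138 counts (0.07, -0.08 to 0.22) and that of Havcr2, the receptor Tim-3, 126 and 328 (-0.13, -0.44 to 0.17). In the PT-Cy library the same peaks had log2 ratios of -1.14 at Cd8a, -0.42 at Klrc1, -0.86 at Klrk1, -0.14 at Cd244a, 0.99 at Tnfsf11, 0.08 at Tigit and -0.26 at Havcr2.

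Across the genome few peaks differed by 2-fold or more between the lineages. Of 40158 peaks with at least 100 counts over both sets, 1091 (2.72%) differed by at least 2-fold. Of the tested peaks 265 (0.66%) were at least 2-fold more open in CD4 and 826 (2.06%) at least 2-fold more open in CD8, while in 19509 (48.6%) the whole interval lay within 1.5-fold either way. The minimum favours CD8, the set with more counts: a peak open in CD4 alone needs 14.3 CPM to reach 100 counts, and one open in CD8 alone 6.02 CPM. With a minimum on the mean CPM of both sets the counts were 381 in CD4 and 644 in CD8, and after the CD8 counts were thinned to the CD4 total 172 and 328. Of the 248 peaks with 99 counts, just outside the minimum, 1.21% were past 2-fold in CD4 and 5.65% in CD8, and of the 252 peaks with 100 counts 0% and 3.97%.

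**Figure D1:**
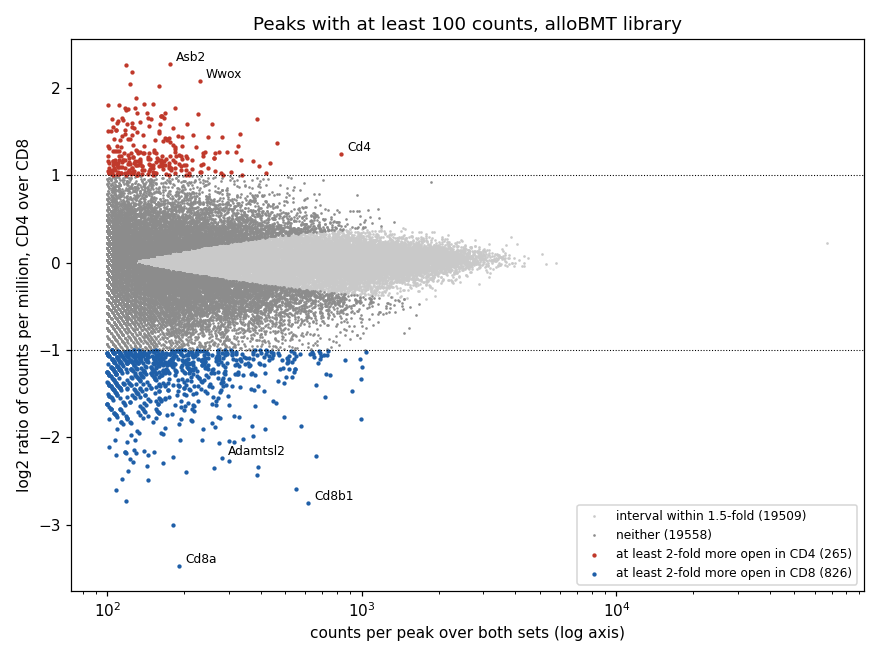
Each point is a peak with at least 100 counts in the alloBMT library, by its counts over both sets (log axis) and its log2 ratio of CPM, CD4 over CD8; dotted lines mark 2-fold. The 826 blue peaks are at least 2-fold more open in CD8, the 265 red peaks in CD4, and Cd8a and Cd8b1 stand lowest among the labelled ones.

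Fewer of the lineage-biased peaks than of all tested peaks lay near gene ends. Both ends of each gene were counted, so the class is not promoters alone. Of all peaks tested, 36.4% lay within 2 kb of a gene end, against 16 of the 265 CD4-open peaks (6.04%), 127 of the 826 CD8-open ones (15.4%) and 53.5% of those open alike. Inside genes lay 61.1% of CD4-open, 51.0% of CD8-open and 27.7% of alike peaks. Peaks open alike also held more counts (median 701, against 140 and 158), which narrows their intervals and so helps them pass the definition. The CD4-open and CD8-open peaks held fewer counts than all tested peaks (median 279), and these shares were not matched for counts.

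The Cd8 locus held the lowest ratio of all tested peaks. All 8 tested peaks nearest to Cd8b1 and all 6 nearest to Cd8a were at least 2-fold more open in CD8, over 37.4 kb and 24.7 kb. Their log2 ratios ran from -3.00 to -1.85 at Cd8b1 and from -3.47 to -2.17 at Cd8a. The strongest was a peak 8.92 kb from Cd8a (chr6:71363729-71364509), with 7 counts in CD4 and 185 in CD8 (-3.47, -4.81 to -2.40), which is 11.1-fold. A peak 13.6 kb from Cd8b1 (chr6:71351135-71352565) had 36 and 579 counts (5.16 and 34.9 CPM, -2.76, -3.28 to -2.27). No peak of the region was open alike, and each had some counts in the CD4 set. In CD4 cells without a Cd8b1 UMI the gene locus of Cd8b1 stood at -3.06, against -2.22 in all CD4 cells.

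At Cd4 the contrast was smaller and ran the other way. The Cd4 locus (all peaks over the gene or within 2 kb) had 652 counts in CD4 and 742 in CD8, or 93.5 and 44.7 CPM, a log2 ratio of 1.07 (0.91 to 1.22). Its peak at chr6:124884875-124886458 had 415 and 416 counts (59.5 and 25.1 CPM, 1.25, 1.05 to 1.45). The CD8 set thus kept 44.7 CPM at Cd4, while the CD4 set had 12.5 CPM at the Cd8b1 locus and 7.03 CPM at the Cd8a locus. Every cell of the CD4 set has Cd4 RNA and none has Cd8a RNA, so the sets are not independent of these genes.

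The genes of the lineage factors differed in only some of their peaks. Of the 6 tested peaks nearest to Zbtb7b, the one at chr3:89385507-89385768 had 76 counts in CD4 and 53 in CD8 (10.9 and 3.19 CPM, 1.77, 1.25 to 2.31), and a second at chr3:89388894-89389533 had 170 and 248 (0.71, 0.42 to 0.99). The other 4 ran from -0.30 to 0.22. In PT-Cy the peak at chr3:89385507-89385768 had 12 and 6 counts (2.02, 0.49 to 3.72). Over the whole Zbtb7b locus the log2 ratio was 0.47 (0.33 to 0.61). Runx3 had 27 tested peaks nearest to it, of which 3 were at least 2-fold more open in CD8 and 0 in CD4. These were at chr4:135069499-135070123 (39 and 247 counts, -1.41), chr4:135136235-135137114 (85 and 445, -1.14) and chr4:135097807-135098857 (106 and 522, -1.05). A peak inside the gene at chr4:135161463-135161755 ran the other way, with 70 and 84 counts (0.99, 0.51 to 1.46). The Runx3 locus, which takes in only 1 of the 3 CD8-open peaks, had 312 CPM in CD4 and 325 in CD8 (-0.06, -0.13 to 0.01), and 8 of its 11 tested peaks were open alike.

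**Figure D2:**
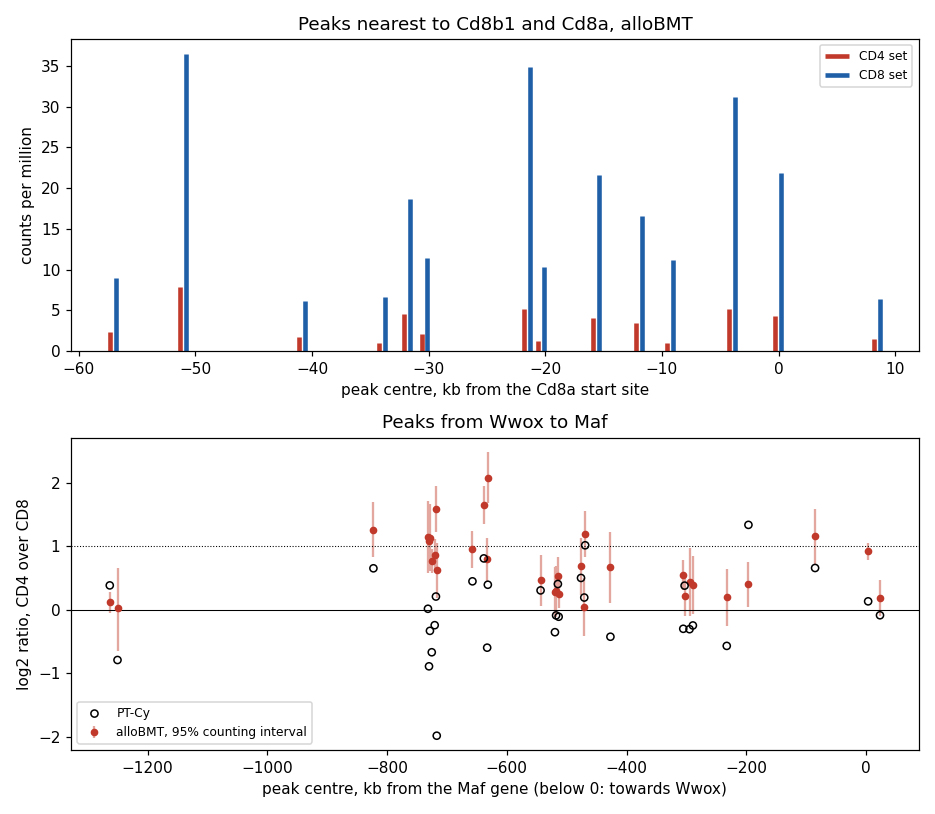
Top: CPM of the CD4 set (red) and the CD8 set (blue) at the 14 tested peaks nearest to Cd8b1 and Cd8a, by distance of the peak centre from the Cd8a start site, with CD8 above CD4 at each. Bottom: log2 ratio CD4 over CD8 of the 32 tested peaks from Wwox to Maf by distance from the Maf gene, in alloBMT (filled, bars are 95% counting intervals) and PT-Cy (open); all 32 alloBMT points are above 0 and 16 of the PT-Cy points are.

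A second broad region was more open in the CD4 set in alloBMT. It runs from Wwox, which encodes an oxidoreductase with WW domains, to the neighbouring gene Maf, a bZIP factor known for its part in follicular helper and IL-10-producing CD4 cells. All 32 tested peaks of this 1288 kb stretch had a log2 ratio above 0 in alloBMT, against 49.6% of all tested peaks, and in 22 the whole interval was above 0 (68.8%, against 10.3%). At least 2-fold were 9 of them in CD4 and 0 in CD8, with a median log2 ratio of 0.65. The stretch was picked after these alloBMT values were seen. Its shares therefore describe it and cannot be taken as support for a bias. The strongest was at chr8:115071082-115071907 inside Wwox, with 148 counts in CD4 and 83 in CD8 (21.2 and 5.00 CPM, 2.09, 1.69 to 2.49). The Maf locus had 824 and 1036 counts (118 and 62.4 CPM, 0.92, 0.79 to 1.05). A peak 84.5 kb from Maf at chr8:115617902-115618723 had 89 and 95 (1.16, 0.72 to 1.59). In PT-Cy 16 of the 32 peaks were above 0, with a median of -0.03, and the Maf locus stood at 0.14 (-0.16 to 0.42). Whether the libraries differ there was not tested.

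The other CD4-open peaks with the highest lower bounds lay mostly inside genes. The peak with the highest was in Asb2 (chr12:103332955-103333673), a substrate receptor of a ubiquitin ligase, with 118 counts in CD4 and 58 in CD8 (16.9 and 3.49 CPM, 2.28, 1.81 to 2.76). A peak in Jdp2 (chr12:85632184-85632698), an AP-1 family factor, had 101 and 59 (14.5 and 3.55 CPM, 2.03, 1.55 to 2.52), and lies 54.0 kb from Batf, another AP-1 factor. A peak in Atp9b (chr18:80738128-80738786), which has a phospholipid transporter as its product, had 79 and 51 (1.88, 1.36 to 2.42) and lies 25.1 kb from Nfatc1, an NFAT factor of antigen receptor signalling. Peaks in Tiam1, an activator of the GTPase Rac, and Sh3rf1, a scaffold of JNK signalling, had log2 ratios of 1.77 (1.34 to 2.21) and 1.70 (1.31 to 2.10). Those near Spdye4c, Pxylp1, Zfp281 and Esm1 had 2.27, 2.18, 1.81 and 1.82. Of the genes with several CD4-open peaks, Itpr1, a calcium channel of the endoplasmic reticulum, had 5 of 37. Cd247, the zeta chain of the T cell receptor complex, had 2 of 17. Egln3 had 2 of 5, Ets1 2 of 48, Ets2 2 of 11, Glb1 2 of 9 and Mbp 2 of 15, against 0.66% of all tested peaks. These genes were picked for their number of CD4-open peaks, so the counts only describe them. Ties were taken in alphabetical order, so other genes may also have 2.

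CD8-open peaks lay on every autosome, from 16 of 1368 tested peaks on chromosome 19 (1.17%) to 78 of 3206 on chromosome 2 (2.43%), against 2.06% of all tested peaks. The highest share was on chromosome 6 (3.22%), which holds the Cd8 locus. Outside the Cd8 locus the genes with the most had 4 to 7 each. All 7 tested peaks nearest to Spry2, an inhibitor of ERK signalling, were at least 2-fold more open in CD8, over 69.0 kb, with log2 ratios from -2.35 to -1.22. The strongest, at chr14:105886403-105887552, had 20 counts in CD4 and 243 in CD8 (2.87 and 14.6 CPM, -2.35, -3.09 to -1.69). A peak further along, at chr14:106026425-106027986 and 78.2 kb from Trim52, had 59 and 516 (-1.88, -2.29 to -1.49). All 5 peaks nearest to Olfm1, which encodes a secreted glycoprotein, were past 2-fold too (-2.07 to -1.02). Ptprj, the phosphatase CD148, had 6 of 13 peaks past 2-fold and all 13 below 0. Myo16 had 4 of 6, Myo1e 4 of 10 and Myc, the growth factor-induced transcription factor, 4 of 35. Single peaks with low upper bounds were in Adamtsl2, a secreted matrix protein (23 and 258 counts, -2.24), in Ptk2b, the kinase Pyk2 (29 and 286, -2.05), and in Fbxw4 (107 and 883, -1.79). Others were in Tns1, with 7 and 101 counts (-2.60), in Tshz2, with 13 and 152 (-2.30), and near Susd1, with 10 and 134 (-2.49).

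Summed over whole gene loci, 89 of 14766 (0.603%) were at least 1.5-fold more open in CD4 and 343 (2.32%) in CD8. Of the 10 CD4 lineage genes, all tested, 4 were past 1.5-fold in CD4 and 0 in CD8, with a median log2 ratio of 0.45, against 0.01 over all gene loci. Cd40lg, the helper ligand of B cells and dendritic cells, had 166 counts in CD4 and 154 in CD8 (23.8 and 9.27 CPM, 1.36, 1.03 to 1.69). Tnfsf11 had 209 and 247 (1.01, 0.74 to 1.28), and Tnfrsf4, the costimulatory receptor OX40, 237 and 364 (0.63, 0.39 to 0.87). Icos, another costimulatory receptor, stood at 0.31 (0.15 to 0.46) and Gata3, a factor of CD4 development, at 0.14 (0.04 to 0.24), inside 1.5-fold. Of the CD8 lineage list 9 of 10 genes were in the gene table, and 3 of these were past 1.5-fold in CD8, Cd8a (-2.25), Cd8b1 (-2.22) and Crtam, an adhesion receptor of activated CD8 cells (360 and 1484 counts, -0.79, -0.96 to -0.62). Eomes, a T-box factor of effector and exhausted CD8 cells, was not among them, with 127 CPM in CD4 and 119 in CD8 (0.09, -0.03 to 0.20). In PT-Cy Eomes stood at -0.83 (-1.15 to -0.52).

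Beyond the lists, the gene loci with the highest lower bounds in CD4 included Trat1, an adaptor bound to the T cell receptor, with 260 and 216 counts (37.3 and 13.0 CPM, 1.52, 1.25 to 1.79). Galnt9, a sugar transferase, had 465 and 460 (1.27, 1.08 to 1.46). Both were above 0 in PT-Cy too, at 1.26 (0.81 to 1.72) and 1.19 (0.82 to 1.56). Fam124b stood at 1.34, Pifo at 1.32, Slc2a13 at 1.40 and Klk1b9 at 1.93, the last from 75 and 47 counts with no peak of its own reaching 100. These loci were uneven within the CD4 set. Trat1 had 62.8 CPM in CD4 cluster 0 (374 cells) and 16.01 in CD4 cluster 1 (320 cells), against 13.0 in the whole CD8 set and 41.5 in CD8 cluster 5. Galnt9, Klk1b9, Pifo and Slc2a13 were also highest among the CD4 clusters in cluster 0, and Fam124b, at 27.8 CPM, in cluster 4, while in cluster 1 it had 5.12, below the 5.72 of the CD8 set. On the CD8 side stood Adamtsl2 (50 and 497 counts, -2.06), Spry2 (157 and 1236, -1.73), Fbln2, a matrix protein (107 and 743, -1.54), Olfm1 (-1.48), Ppic, a cyclophilin (-1.65), and Adam1a (-1.69). In PT-Cy Spry2 stood at -0.99 (-1.54 to -0.48). Adamtsl2 (-0.54), Fbln2 (-0.65), Olfm1 (-0.26), Ppic (-1.15) and Adam1a (-2.30) were below 0 there with intervals that reached above it. The PT-Cy intervals of Klk1b9 (0.20), Pifo (0.47) and Slc2a13 (0.37) also covered 0, and that of Fam124b (1.16) did not.

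**Figure D3:**
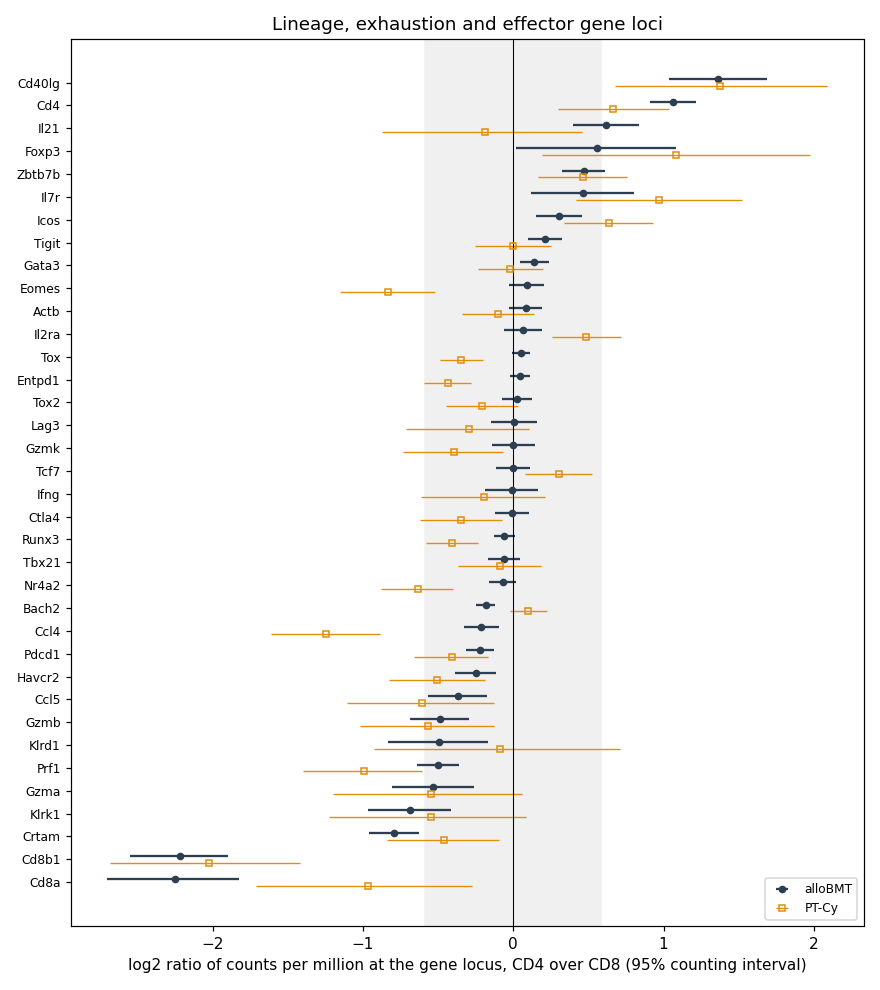
Log2 ratio of CPM at 36 gene loci, CD4 over CD8, in alloBMT (dark circles) and PT-Cy (open orange squares), with 95% counting intervals; the grey band is 1.5-fold either way. In alloBMT Cd8a, Cd8b1, Crtam and Klrk1 lie left of the band, Cd40lg, Cd4 and Il21 right of it, and Tox, Ctla4, Lag3 and Entpd1 near 0.

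The loci of exhaustion factors differed little between the lineages, apart from Maf, and so did most gene loci. Of 15 genes of exhaustion factors, all tested, only Maf was past 1.5-fold (in CD4). Of all gene loci 2.93% were past it in either direction. The list median was 0.05, against 0.01 over all gene loci, and 69 of the 134 peaks (51.5%) were open alike, close to the 48.6% of all peaks. Tox, the factor needed for exhausted CD8 cells to persist, had 3425 counts in CD4 and 7869 in CD8 (491 and 474 CPM, 0.05, -0.01 to 0.11). Tox2 stood at 0.03 (-0.08 to 0.13). Nr4a2, a nuclear receptor induced by antigen receptor signalling, had 213 and 224 CPM (-0.07, -0.16 to 0.02). The narrowest interval of any peak at these genes and the inhibitory receptors was that at Nr4a2 (chr2:57114083-57117044), with 1061 and 2583 counts (152 and 156 CPM, -0.03, -0.14 to 0.07). A peak at Bhlhe40 (chr6:108659128-108660919) had 1074 and 2492 (0.04, -0.07 to 0.14), and one near Nr4a3 (chr4:48042569-48043702) had 742 and 1797 (-0.02, -0.15 to 0.10).

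A few peaks at or near these genes still differed. At the exhaustion factor loci 2 of 134 tested peaks were past 2-fold in CD4 and 0 in CD8. For the inhibitory receptors these were 0 and 4 of 61, against 0.66% and 2.06% of all tested peaks. One of the 32 tested peaks at the Tox locus (chr4:6975363-6976222) had 88 counts in CD4 and 93 in CD8 (1.17, 0.73 to 1.61), and 12 of the 32 were open alike. A peak in Ikzf2, the factor Helios, had 71 and 74 (1.19, 0.70 to 1.68). One 150 kb from Id2, an inhibitor of E proteins, had 64 and 57 (1.42, 0.88 to 1.96). These 3 were more open in CD4. In CD8 the more open ones were a peak 59.2 kb from Nfatc1 (27 and 130 counts, -1.02), 2 at Pdcd1 and 2 at Cd244a. The Pdcd1 peaks, at chr1:94040390-94040735 and chr1:94047992-94048339, had 34 and 174 counts (-1.10, -1.68 to -0.57) and 68 and 332 (-1.04, -1.43 to -0.66). In PT-Cy the CD4-open ones had log2 ratios of 0.41 at Tox, -0.18 at Ikzf2 and 1.10 near Id2. The CD8-open ones had 0.24 near Nfatc1, -0.79 and 0.13 at Pdcd1 and -0.81 and -0.14 at Cd244a. Only the Id2 peak and the Cd244a peak at -0.81 had intervals there that did not cover 0.

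Among the inhibitory receptors some loci were near 0 and others differed in either direction. Of 12 genes, all tested, 2 were past 1.5-fold in CD4 and 1 in CD8 (2.93% of all gene loci were past it in either direction). The median was 0.02, and 33 of 61 peaks (54.1%) were open alike, against 48.6% of all peaks. Ctla4 had 130 and 131 CPM (-0.01, -0.12 to 0.10), Lag3 71.8 and 71.4 (0.01, -0.15 to 0.16) and Entpd1, the ectoenzyme CD39, 377 and 365 (0.05, -0.02 to 0.11). Pdcd1, the receptor PD-1, had 179 and 209 CPM (-0.22, -0.32 to -0.13), Havcr2 84.7 and 101 (-0.25, -0.39 to -0.11) and Tigit 141 and 122 (0.21, 0.10 to 0.32), so these intervals left 0 but stayed within 1.5-fold. Cd244a was the CD8-biased one (341 and 1586 counts, 48.9 and 95.5 CPM, -0.97, -1.14 to -0.80). Btla, a receptor of the CD28 family that binds HVEM, had 314 and 426 (45.0 and 25.7 CPM, 0.81, 0.60 to 1.03), and Lair1, a collagen receptor, 120 and 180 (0.67, 0.32 to 1.01). Cd160, another HVEM ligand, stood at -0.45 (-0.68 to -0.22).

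Granule genes stayed within 1.5-fold, and more of their intervals lay on the CD8 side than on the CD4 side. Of 16, all tested, 0 were past 1.5-fold, 7 had an interval wholly below 0 (43.8%, against 11.7% of all gene loci) and 2 wholly above (12.5%, against 10.8%), and the median was -0.13. Of their 48 peaks 20 (41.7%) were open alike, against 48.6% of all peaks. Prf1, which encodes perforin, had 534 counts in CD4 and 1798 in CD8 (76.6 and 108 CPM, -0.50, -0.64 to -0.36). Gzmb had 276 and 922 (-0.49, -0.69 to -0.29) and Gzma 145 and 499 (-0.53, -0.81 to -0.26), while Gzmk, a granzyme of memory-like CD8 cells, had 82.4 CPM in each (0.00, -0.14 to 0.14). The chemokine genes Ccl5 and Ccl4 stood at -0.37 (-0.57 to -0.17) and -0.21 (-0.33 to -0.09), and Ifng at -0.01 (-0.19 to 0.17). Killer lectin-like receptors, which sense MHC class I and stress ligands, had all 5 tested loci below 0. Of 12, 5 reached 100 counts and 4 had 0 counts, so the 5 are not all members. Klrc1 (138 and 639 counts, -0.96, -1.24 to -0.69) and Klrk1 (139 and 532, -0.68, -0.96 to -0.41) were past 1.5-fold, and Klre1 and Klrd1 stood at -0.55 and -0.49. The fifth, Klrg1, named after its value was seen, was nearest to 0 (389 and 1049 counts, -0.18, -0.35 to -0.01). The Klrc genes are near-identical neighbours, so reads may be split between them. The CD4 set had 18.8% of the CD8 set's level at the Cd8a and Cd8b1 region, and the part of this in the ratios at killing genes was not tested.

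**Figure D4:**
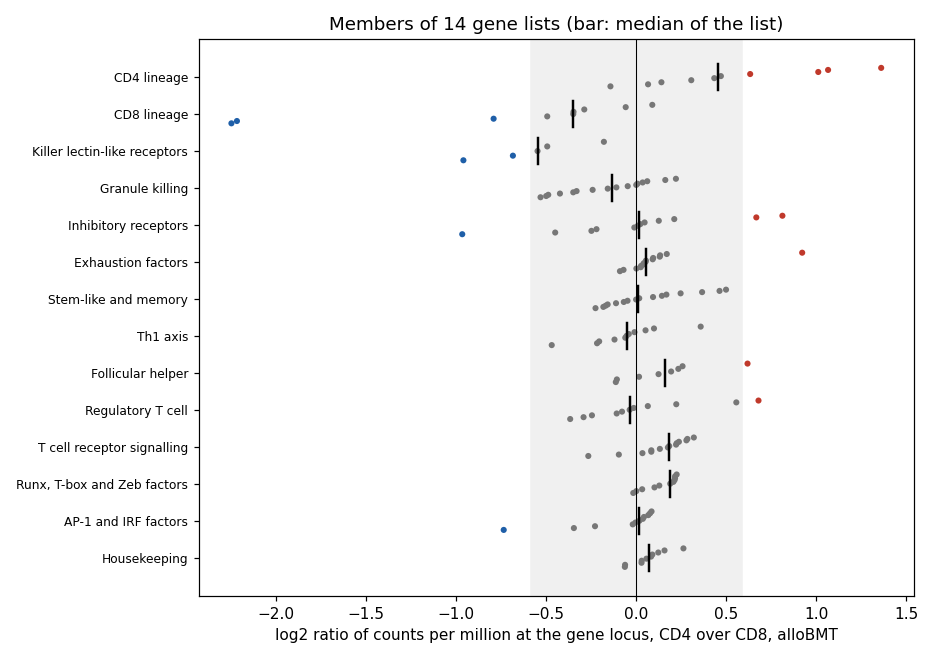
Log2 ratio of CPM, CD4 over CD8, for each tested member of 14 gene lists in alloBMT; black bars are list medians, the grey band is 1.5-fold, and coloured points are past it (red CD4, blue CD8). Medians run from -0.55 for killer lectin-like receptors to 0.45 for CD4 lineage genes.

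Stem-like and memory genes, which mark the cells that renew an exhausted population, had 16 members tested, 0 past 1.5-fold (against 2.93% of all gene loci, the background for each list here) and a median of 0.01. Tcf7, the factor TCF-1 that defines such cells, had 129 CPM in each set (interval of the log2 ratio -0.11 to 0.11). Il6ra (0.50, 0.36 to 0.64), Il7r (0.46, 0.12 to 0.80) and Id3 (0.37, 0.09 to 0.64) leaned to CD4, and Bach2, a repressor of effector genes, to CD8 (-0.18, -0.25 to -0.12). Of 8 follicular helper genes Il21, a helper cytokine, was past 1.5-fold in CD4 (281 and 436 counts, 0.62, 0.40 to 0.84), and the list median was 0.16. Of 11 regulatory T cell genes Gpr83 was past it (0.68), and Foxp3, their defining factor, had 50 and 81 counts (0.56, 0.02 to 1.08). Nrp1 (-0.37, -0.55 to -0.19) and Ikzf4 (-0.29, -0.42 to -0.17) of this list leaned to CD8. The list median was -0.04, with 3 intervals wholly above 0 and 3 wholly below (27.3% each, against 10.8% and 11.7% of all gene loci). Tnfrsf25, the receptor DR3, had 223 and 304 (0.80, 0.55 to 1.06) and Tgfbr3, a TGF-beta co-receptor, 788 and 1197 (0.65, 0.52 to 0.78). Of 11 AP-1 and IRF genes Batf3 was the only one past 1.5-fold, in CD8 (114 and 452 counts, -0.74, -1.05 to -0.44). The Th1 axis had 11 tested genes, 0 past 1.5-fold and a median of -0.05, with Tbx21, the factor T-bet, at -0.06 (-0.17 to 0.05). Of 14 T cell receptor signalling genes 0 were past 1.5-fold, 8 had an interval wholly above 0 (57.1%, against 10.8% of all gene loci) and the median was 0.18. Loci with more counts have narrower intervals, and these shares were not matched for counts. Housekeeping genes had a median of 0.07, with 0 of 10 past 1.5-fold, and Actb, a cytoskeletal actin, at 0.08 (-0.03 to 0.19).

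The deposited clusters, 5 in the CD4 set and 8 in the CD8 set with at least 30 cells, show how even each difference was within a lineage. They are parts of 1 library and not replicates, and cluster numbers of the 2 sets are unrelated. The Cd8a and Cd8b1 region did not overlap between the sets, at 29.4 to 60.5 CPM over the CD4 clusters and 181 to 287 over the CD8 clusters. The loci of Crtam (18.6 to 62.1 and 64.1 to 106 CPM), Klrc1 (13.6 to 26.3 and 26.4 to 43.6), Adamtsl2 and Ppic were also higher in every CD8 cluster. Their margins were narrow, unlike that of the Cd8 region. The highest CD4 cluster had 14.6 CPM at Adamtsl2 (5 counts) and 6.19 at Ppic, and the lowest CD8 cluster 16.2 and 7.83. No interval was computed for clusters, so such gaps are not told from counting error. Tnfsf11 was higher in every CD4 cluster, at 20.8 to 43.0 against 11.1 to 18.7 CPM. So were the peaks in Asb2 (from 9.28, against up to 6.55 CPM) and Jdp2 (from 6.19, against up to 5.99). Cd4 overlapped, since CD4 cluster 4 (34 cells) had 49.5 CPM from 16 counts and the CD8 clusters 38.2 to 57.1. The other CD4 clusters ran up to 116 CPM. Cd40lg overlapped through the same cluster, with 3.09 CPM (1 count) in CD4 cluster 4 and 34.4 in CD4 cluster 2 (42 cells), against 3.76 to 13.2 in the CD8 clusters. CD4 cluster 4 had 30.9 CPM at the Foxp3 locus (10 counts), and CD8 cluster 5 (30 cells) had 41.5 (11 counts), each the highest of its set. Spry2 varied among the CD8 clusters, from 26.0 CPM in cluster 4 to 103 in cluster 3. Tox was even, at 441 to 517 CPM over the CD4 and 439 to 505 over the CD8 clusters.

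Over all peaks, every CD4 cluster was above every CD8 cluster in 79 (0.197%) and every CD8 cluster above every CD4 cluster in 167 (0.416%). Among the peaks past 2-fold these were 19 of the 265 in CD4 (7.17%) and 83 of the 826 in CD8 (10.0%), which rest on the same counts as the call. With clusters of at least 100 cells only, 3 in CD4 and 6 in CD8, they were 127 and 342, against a background of 2.61% and 2.99% of all peaks.

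**Figure D5:**
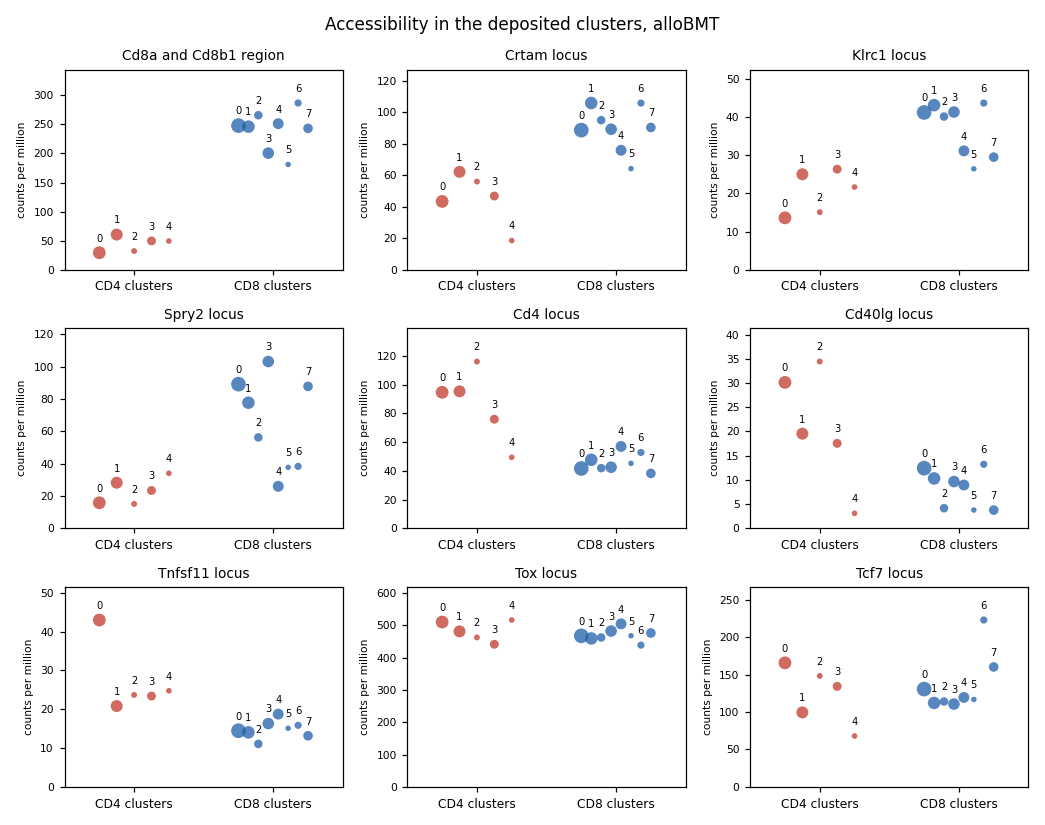
CPM of each deposited cluster of at least 30 cells in alloBMT at 9 loci, CD4 clusters in red and CD8 clusters in blue, labelled by cluster number, with point area growing with the number of cells. The Cd8a and Cd8b1 region does not overlap, nor do Crtam and Klrc1, by narrow margins. Cd4 and Cd40lg overlap through CD4 cluster 4, and Tox is even across all clusters.

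The PT-Cy library was not used to choose these peaks and shares no cells with alloBMT, though 2 barcode sequences occur in both. Its mice had another treatment, so it is not a replicate, and its CD4 set had more CD8 signal, with 36.1% of the CD8 set's level at the Cd8a and Cd8b1 region. Of the 265 CD4-open peaks 259 had at least 10 counts there, and 200 of these (77.2%) were above 0, against 46.9% of all peaks. Of the 826 CD8-open peaks 737 could be read, and 572 (77.6%) were below 0, against 53.1%. At least 2-fold in the same direction were 69 (26.6%, against 3.23%) and 217 (29.4%, against 7.24%). The median log2 ratio was 1.18 in alloBMT, where the peaks were chosen, and 0.50 in PT-Cy on the CD4 side, and -1.21 and -0.57 on the CD8 side. With at least 40 counts in PT-Cy, 105 of 123 (85.4%) and 157 of 181 (86.7%) kept their direction. Among the leading peaks Asb2 (10 and 21 counts, -0.05, -1.30 to 1.10) and Jdp2 (10 and 24, -0.24, -1.47 to 0.87) were near 0 with wide intervals. The other named CD4-open peaks were above 0 again, with Atp9b at 0.97 (0.20 to 1.74). The intervals of Spdye4c (0.87), Pxylp1 (0.78), Zfp281 (0.78), Sh3rf1 (0.60), Wwox (0.40), Tiam1 (0.40) and Esm1 (0.33) covered 0. Fbxw4 (-1.42, -2.14 to -0.75), the Trim52 peak (-1.75, -2.81 to -0.83) and the Cd8b1 peak (-1.99, -2.91 to -1.19) were below 0 again. The strongest Spry2 peak was not, at 0.02 (7 and 14 counts, -1.53 to 1.42), while the whole Spry2 locus was (39 and 157 counts, -0.99, -1.54 to -0.48). The intervals of the Cd8a peak (-1.20, -2.77 to 0.10), Adamtsl2 (-0.52, -1.66 to 0.50), Ptk2b (-0.98, -2.75 to 0.48), Tns1 (-1.30) and Tshz2 (-2.07) reached above 0.

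In PT-Cy 5 of the 15 exhaustion factor loci and 4 of the 12 inhibitory receptor loci had an interval wholly below 0. Wholly above it were 0 and 1, against 5.26% below and 6.02% above of all gene loci. In alloBMT 1 of the 15 and 4 of the 12 were wholly below 0, and 4 and 3 wholly above. Of all gene loci 11.7% were below and 10.8% above in alloBMT. The list medians in PT-Cy were -0.07 and -0.27. Tox had a log2 ratio of -0.34 there (-0.49 to -0.20), Entpd1 -0.44 (-0.60 to -0.28), Ctla4 -0.35 (-0.62 to -0.08) and Nr4a2 -0.64 (-0.88 to -0.40). Tigit (0.00, -0.25 to 0.25), Lag3 (-0.30, -0.71 to 0.11) and Tox2 (-0.21, -0.45 to 0.03) had intervals that covered 0. Tcf7 stood at 0.30 (0.08 to 0.52). The intervals of Tox, Entpd1 and Nr4a2 did not overlap those of alloBMT, and those of Ctla4 and Tcf7 did. Loci with more counts have narrower intervals. The share of all gene loci without such overlap was not counted, so a lack of overlap is not shown to be particular to these genes. Counts per cell also differed between the libraries, with medians of 4090.5 (CD4) and 4615 (CD8) in PT-Cy, and the difference between libraries was not tested. The authors' exhaustion score for accessibility, with a gene set that the sources used here do not name, averaged 0.0368 ± 0.0379 (SD over 926 cells) in alloBMT CD4 cells and 0.0558 ± 0.0389 (SD over 1865 cells) in CD8 cells, so the sets overlapped widely.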

How the data were processed

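RNA and accessible DNA were read from the same cells of 1 alloBMT and 1 PT-Cy library. The authors deposited whole-number counts per peak and cell, and per gene and cell for the CD4 set, and per the file headers and values they were not normalized. The deposited per-cell table gave the set, cluster and library, the fraction of fragments in peaks (printed as a percent), the enrichment ratio at transcription starts and the exhaustion score, whose gene sets the authors do not name there. Of its 58 columns, 45 were not used. Cell Ranger ARC 1.0.1 and MACS2 were used, per the submitters' processing notes. Settings, cell filters and doublet treatment are missing from these notes, and no doublets were removed here. The notes name the build GRCh38, but 31.2% of 43774 mouse gene ends (RefSeq, GRCm38.p6) lay in a peak, against 6.16% to 6.89% after shifts of 2000 to 200000 bases, so that gene table was used for neighbouring genes and peak positions are as deposited.

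For each set, counts were added over its cells and scaled to a total of 1000000 (CPM). Peaks and gene loci (peaks over a protein-coding gene or within 2 kb) with at least 100 counts over both sets were compared by the log2 ratio, with exact conditional binomial (Clopper-Pearson) 95% intervals. A peak was called at 2-fold, a gene locus at 1.5-fold, and a peak open alike where its interval lay within 1.5-fold. The steps were tested on simulated data. Software was Python 3.11.15, numpy 2.4.6, pandas 2.3.3, scipy 1.17.1, matplotlib 3.10.9 and, for scaling alternatives, R 4.3.3 with edgeR 4.0.16 and DESeq2 1.42.0.

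The genes, peaks and 24 lists were chosen with earlier results of these data known. Named peaks were 10 in each direction whose interval lay farthest from 0, at most 1 per nearest gene, with all tested peaks at Cd4, Cd8a, Cd8b1, Zbtb7b and Runx3 and the 8 alike peaks with the narrowest intervals at exhaustion genes and inhibitory receptors. Named genes were 36 fixed ones, up to 4 per list with the largest ratios, the 8 with the most called peaks and the 8 most extreme loci in each direction. Called peaks at exhaustion genes, the promoters and the stretch from Wwox to Maf were picked after their values were seen. Predicted genes and T cell receptor segments were left out of the rankings. Alternatives covered scaling, count minimums, cell choice, weighting of cells and the gene window. One gene of the lists is not reported by name here.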

Additional observations from a re-analysis of the deposited data

Results flagged for a closer look

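Of 126 named gene loci compared in both libraries, 3 had whole intervals on opposite sides of 0 in alloBMT and PT-Cy, as did 1 of 83 named peaks. Each library is 1 pool, and the difference was not tested. Nrp1, a semaphorin co-receptor, had 328 counts in CD4 and 1007 in CD8 in alloBMT (log2 ratio -0.37, -0.55 to -0.19), and 128 and 166 in PT-Cy (0.64, 0.30 to 0.98). Zbtb16, the factor PLZF of innate-like T cells, had 267 and 971 (-0.61, -0.81 to -0.41) against 119 and 162 (0.57, 0.22 to 0.92). At both of these loci CD8 was higher in alloBMT and CD4 in PT-Cy. Sh2d1a, the adaptor SAP, went the other way, with 537 and 1118 (0.19, 0.04 to 0.34) against 72 and 194 (-0.41, -0.82 to -0.01). So did the peak in Runx3 at chr4:135158666-135160430, with 342 and 670 (0.28, 0.09 to 0.47) against 45 and 143 (-0.65, -1.17 to -0.16).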

How the results depend on the processing

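No paired analysis was possible because each library holds a single pool and no result comes from a test. Counts of calls depend on the minimum. Against 265 peaks in CD4 and 826 in CD8, a minimum of 20 counts gave 2831 and 5474, and 200 counts gave 47 and 280. A minimum on mean CPM gave 381 and 644. Counting each cell once per peak gave 170 in CD4, thinning CD8 to the CD4 total 172 and 328, cells of the middle range of depth 113 and 402, a mean over cells 429 in CD4, and a whole interval past 1.5-fold 488 in CD8. Of these calls CD4 made up 24.3%, and 34.1%, 14.4%, 37.2% and 34.4% with minimums of 20 and 200, on mean CPM and after thinning. Of gene loci, 89 in CD4 and 343 in CD8, minimums of 20 and 200 gave 270 and 785, and 58 and 221, and a mean over cells 136 in CD4.

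Peaks open alike were 48.6% of those tested, and 22.1% and 71.8% with minimums of 20 and 200, 49.4% with each cell counted once, 55.2% after thinning, 47.9% without the 5% of cells with the most counts, 43.4% without CD4 cells with a Cd8b1 UMI, 46.9% without CD4 clusters 2 and 4 and 51.5% at the middle depths. Of CD4-open peaks 77.2% kept their direction in PT-Cy, and 67.0% at the middle depths and 70.5% by a mean over cells. For CD8-open peaks, 77.6%, it was 82.8% with TMM, 82.1% with DESeq2 size factors, 66.9% and 87.7% with minimums of 20 and 200, 80.8% with that on mean CPM, 83.1% with each cell counted once, 83.7% after thinning, 83.6% without the top 5% of cells and 81.1% without CD4 cells with a Cd8b1 UMI. Chosen after seeing the data were a minimum of 40 counts in PT-Cy (85.4% and 86.7%) and clusters of at least 100 cells (127 and 342 called peaks apart, against 19 and 83). The list medians moved for CD4 lineage genes to 0.31 and for natural killer genes to -0.0098 with a 10 kb window, and for CD8 lineage genes to -0.60 by a mean over cells. Ccnb1, a cyclin, changed sign at the middle depths, from 0.24 to -0.018. The cause of these shifts was not tested.

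All 20 named peaks and 25 of 31 named loci past the fold stayed past it in each of 12 alternatives. The exceptions were Batf3 (down to -0.56), Il21 (0.55), Tnfrsf4 (0.54), Gpr83 (0.57), Lair1 (0.50) and Tgfbr3 (0.52). TMM and DESeq2 factors moved the median of all peaks by at most 0.02 on the log2 scale. With 100 counts only large ratios can be told from counting error, so peaks called neither way are not shown to be alike.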
